A study of Canis lupus familiaris with 3 samples.

Results

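Apoptosis and TNF receptor pathway genes were taken from a comparison of E47-transfected and control dog kidney cells. They were chosen by gene symbol, with earlier results of these data known. The symbols covered the BCL2 family, cytochrome c and its partners, caspases, inhibitors of apoptosis (IAPs) and TNF family ligands and receptors. They also covered the adaptor proteins and kinases of these receptors, NF-kB genes, death-associated kinases and genes with a PDCD symbol. Of 85 symbols on the array that fit this rule, 78 had a value on all 3 arrays, out of 5508 named genes with such values. The cells were MDCK, an epithelial line from dog kidney. The E47 group was MDCK transfected with E47, a helix-loop-helix factor made from the TCF3 gene and a repressor of E-cadherin, and it was set against MDCK-CMV control cells. Both were grown in the same serum-containing medium with antibiotics, and no other agent is given. E47 RNA was amplified from 2 extractions: extraction 1 was on 1 array in Cy5, and extraction 2 was on 2 arrays, once in Cy3 and once in Cy5, with control RNA in the other dye. Neither a separate culture nor a separate clone is stated for the extractions, so the spread between them may be technical. The p-values measure no other spread between replicates, and the test used draws the spread of each gene towards that of all features. The promoter driving E47, how much E47 the cells made and whether a line is 1 clone are not stated.

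Cells die by apoptosis along connected routes. In the mitochondrial route, BCL2 proteins decide whether the outer mitochondrial membrane is opened, cytochrome c escapes and caspase-9 is activated on the apoptosome. In the receptor route, TNF family ligands bind receptors whose adaptors either activate caspases or pass the signal to NF-kB, a family of transcription factors that is held in the cytoplasm by inhibitory IkB proteins. Epithelial cells also use apoptosis when they lose contact with matrix or neighbours.

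All values below are log2 ratios of E47 over control, so a positive value is higher in E47 cells, and they are given in the order extraction 1, extraction 2 in Cy3, extraction 2 in Cy5. This direction is likely and not stated: each sample lists its E47 cells as the first channel, and the E-cadherin gene CDH1 was at −3.52, −3.83 and −3.47. A ratio compares cell populations and gives no level, so genes cannot be ranked by abundance, and fewer expressing cells cannot be told apart from less RNA per cell. The log base is read as 2 and was not stated. The 3 arrays had medians of −0.0051, 0.0027 and 0.0008 and SDs of 0.623, 0.43 and 0.535 over their spots, so the Cy3 array had the narrowest spread. Of 306 spots of these genes, 245 had a value on every array. The clones on the array are human and can bind related dog transcripts. The same symbol stands in the dog gene table for 71 of the 78 genes.

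Of the 78 genes, 10 passed the test at an adjusted p under 0.05, 4 higher and 6 lower in E47 cells. That is 12.8% of them, against 9.19% of all named genes, with 5.13% higher against a background of 5.34% and 7.69% lower against 3.85%. The classes described below are small, and none was tested as a whole. The genes that rose were CYCS, BNIP3L, DAPK1 and PDCD10, and the genes that fell were BAX, CASP6, TNFSF10, TNFRSF21, RIPK2 and TRAF7. Each had the same sign on all 3 arrays. In all, 33 of the 78 genes (42.3%) lay below 0 on all 3 arrays and 15 (19.2%) above 0, against 32.8% and 30.6% of named genes. The median of the 78 was −0.09 and that of all named genes −0.02. Most changes were small: 52 of the 78 had a mean between −0.25 and 0.25. Without regard to sign, the median was 0.17 for the 78 and 0.20 for all named genes. A 2-fold mean change was reached by 4 of the 78 (5.13%), against 4.76% of named genes. These 4 were CYCS, CASP6, RIPK2 and TRAF3, the last of which did not pass. The test was limma's, on the mean of both extractions after the arrays of extraction 2 were averaged, adjusted with Benjamini-Hochberg over 14008 features. With extraction 2 represented by its Cy3 array alone, CYCS was the 1 gene of the 78 that passed (background 1.98%), and by its Cy5 array alone 17 passed (background 16.7%), 5 higher and 12 lower (8.13% and 8.55%). With each array scaled to the same spread, RIPK2 was the 1 gene that passed (background 1.23%), so 0 were higher and 1 was lower (0.690% and 0.545%). At an unadjusted p under 0.05, 23 of the 78 genes (29.5%) were past the threshold, against 35.6% of named genes. They were 6 higher and 17 lower, with backgrounds of 17.4% and 18.2%.

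**Figure D1:**
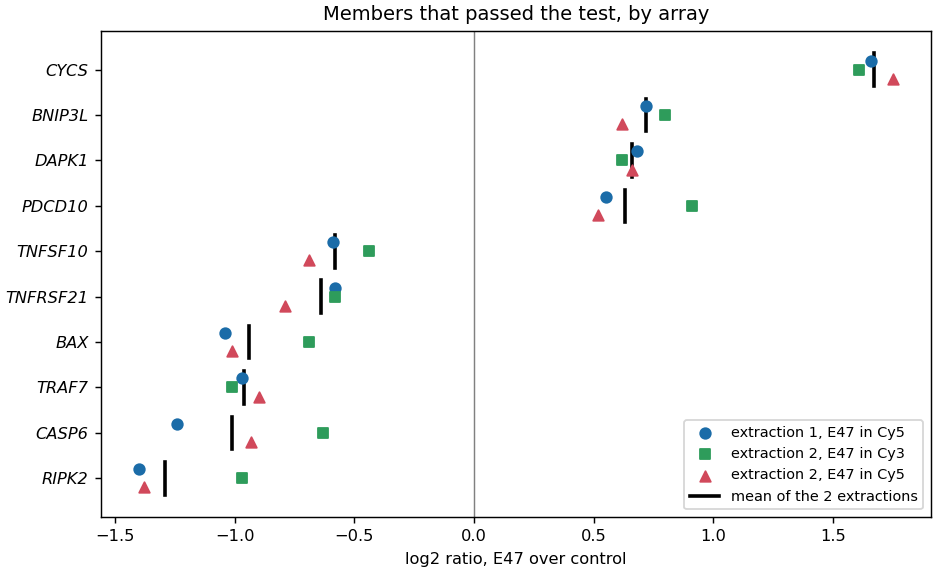
Log2 ratios of E47 over control (x axis) for the 10 genes that passed the test, with a symbol for each array and a black bar at the mean of the 2 extractions. CYCS, BNIP3L, DAPK1 and PDCD10 lie above 0 and the other 6 below 0 on every array, and for PDCD10, BAX and RIPK2 the Cy3 array stands apart from both Cy5 arrays.

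Cytochrome c had the highest ratio of all 78 genes. CYCS, which encodes this electron carrier and activator of the apoptosome, was at 1.66, 1.61 and 1.75. The arrays lay close together, and the mean of 1.67 ± 0.02 (SD, n = 2 extractions) was 3.18-fold higher in E47 cells, with a limma adjusted p of 0.0194. Its 3 clones, on 8 spots, gave means of 1.55, 1.71 and 1.87, so no single clone carried the result. Mammalian genomes hold processed pseudogenes of cytochrome c, and their transcripts, if any, cannot be separated here. DIABLO, which encodes the mitochondrial protein SMAC that relieves IAP inhibition once released, was above 0 on each array at 0.19, 0.12 and 0.21 but did not pass, with an adjusted p of 0.228. With scaled arrays CYCS had an adjusted p of 0.0543, the highest in any alternative (lowest 0.00753).

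Of 14 genes classed with the BCL2 family by symbol, 1 rose and 1 fell (backgrounds 5.34% and 3.85%). The gene that rose, BNIP3L, is in this class through its BNIP symbol. BAX, a pore former of the outer mitochondrial membrane, was at −1.04, −0.69 and −1.01. All arrays were clearly below 0, and the mean of −0.94 ± 0.13 (SD, n = 2) was 1.92-fold lower in E47 cells, with a limma adjusted p of 0.0269. Both BAX clones were below 0, at −1.19 and −0.46, but they differed in size. BAK1, the other pore former of this family, was at −0.35, −0.02 and −0.09 and did not pass (adjusted p 0.290). It was close to 0 on both arrays of extraction 2.

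BNIP3L, also called NIX, a mitochondrial outer membrane protein that marks mitochondria for autophagy, was at 0.72, 0.80 and 0.62. Its mean of 0.72 ± 0.01 (SD, n = 2) was 1.64-fold higher in E47 cells (adjusted p 0.0326), and its clones were at 0.55 and 0.88. BNIP2, a BCL2-interacting protein that is not of the BCL2 fold, was at 1.02, 0.53 and 0.64. It was above 0 on all arrays and had a higher mean than BNIP3L, 0.80, but a wider spread (SD 0.31) and an adjusted p of 0.0602.

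Survival proteins of the family did not pass the test. BCL2L2, which encodes BCL-w, was at −0.71, −0.31 and −0.34, and MCL1 at −0.53, −0.25 and −0.35. Both lay below 0 on every array, with adjusted p-values of 0.0997 and 0.0978. BCL2 itself was at 0.18, 0.25 and 0.18 (adjusted p 0.202), and BCL2L1, which encodes BCL-XL, at −0.10, −0.18 and −0.17. Both were thus of one sign with a small size. BCL2L11, which encodes the BH3-only activator BIM, was at −0.28, 0.46 and −0.66. Its sign turned between the arrays of the dye swap, and its clones were at −0.41 and 0.26. BAD, BID, BNIP1, BCL2A1 and BCL2L10 had means between −0.19 and 0.10 and mixed signs.

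**Figure D2:**
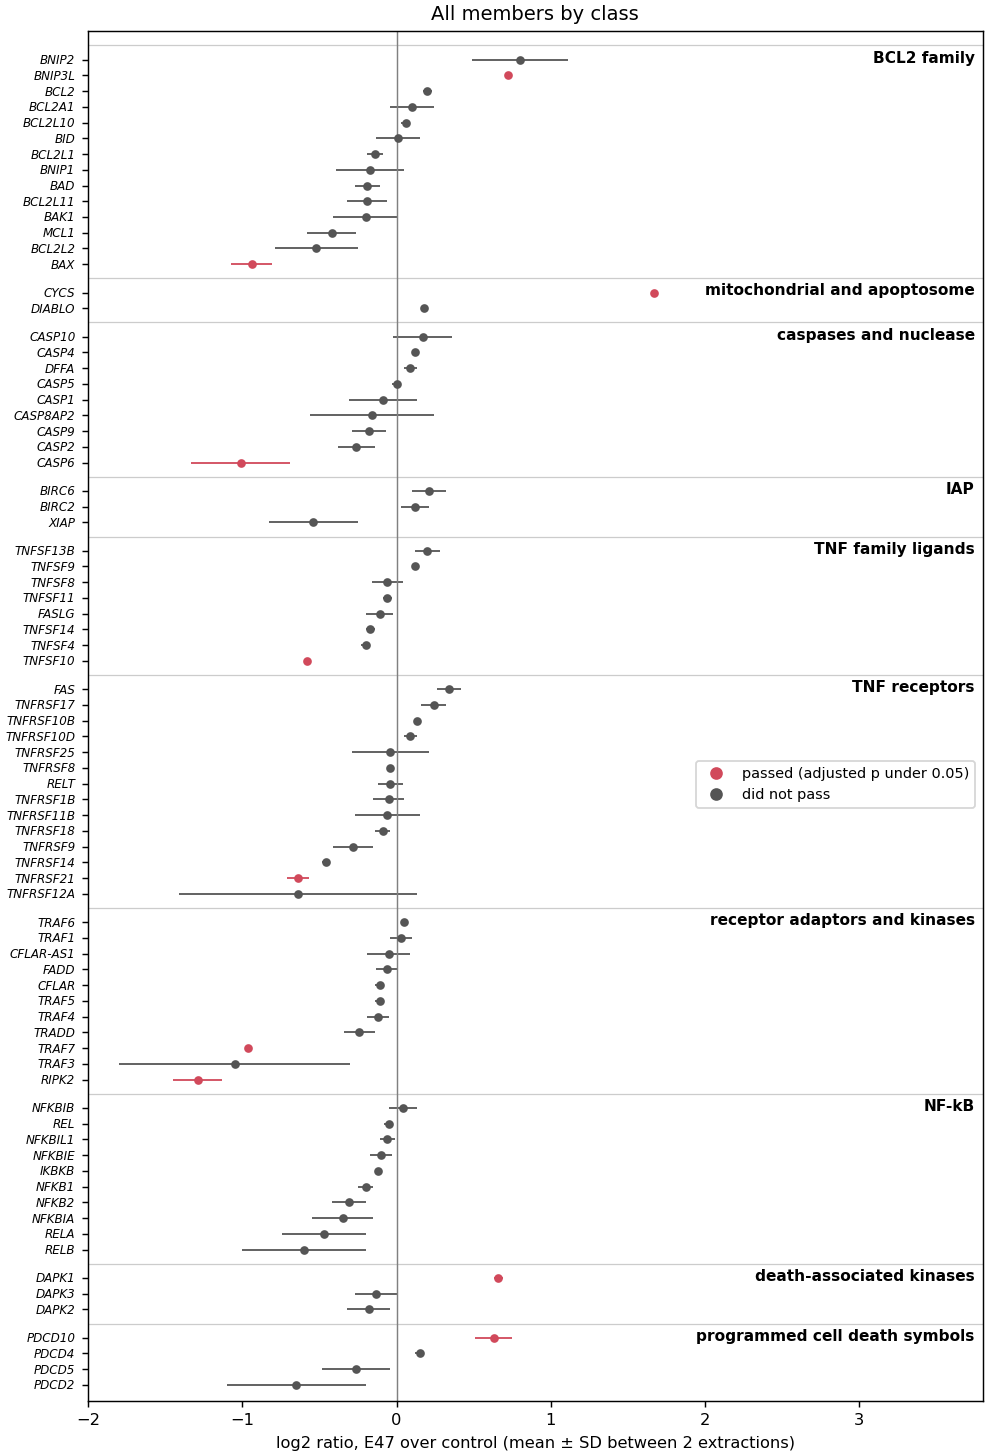
Mean log2 ratio of E47 over control (x axis) for all 78 genes, grouped by class and ordered within it. Points are means of 2 extractions and bars the SD between them. Genes that passed are red and the others grey. Most points lie near 0, and the widest bars belong to TNFRSF12A (SD 0.77) and TRAF3 (SD 0.75).

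Among caspases and the nuclease inhibitor DFFA, 1 of 9 genes fell and 0 rose (backgrounds 3.85% and 5.34%). CASP6, an effector caspase that cleaves nuclear lamins, was at −1.24, −0.63 and −0.93. The Cy3 array was the least negative, and the mean of −1.01 ± 0.32 (SD, n = 2) was 2.01-fold lower in E47 cells, with a limma adjusted p of 0.0444. It was measured by 1 clone, and it did not pass when incomplete spots, those missing from 1 array or more, were kept (adjusted p 0.0582, from 0.0224 to 0.119 over its alternatives). The initiators CASP2, at −0.34, −0.12 and −0.25, and CASP9, at −0.26, −0.14 and −0.06, were below 0 on all arrays without passing (adjusted p 0.157 and 0.263). CASP10, an initiator recruited to death receptors, was at 0.30, 0.00 and 0.08. CASP8AP2, or FLASH, a protein of histone mRNA processing first found as a caspase-8 partner, was at −0.44, 0.43 and −0.18, with opposite signs on the arrays of extraction 2. The inflammatory caspases CASP1, CASP4 and CASP5 were at −0.09, 0.12 and 0.00 as means. CASP1 and CASP5 have no entry under these symbols in the dog table, and clones of this subfamily can bind each other's transcripts.

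The 3 measured IAPs did not pass. XIAP, an inhibitor of caspases 3, 7 and 9, was at −0.74, −0.03 and −0.63, so it was clearly below 0 on the Cy5 arrays and near 0 on the Cy3 array. Its mean was −0.54 ± 0.29 (SD, n = 2). BIRC2, the ubiquitin ligase cIAP1, was at 0.06, 0.29 and 0.09, and BIRC6, a large ubiquitin-conjugating IAP, at 0.29, 0.17 and 0.09. Both were above 0 on each array.

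Of 8 TNF family ligands 1 fell (background 3.85%). TNFSF10, which encodes the death ligand TRAIL, was at −0.59, −0.44 and −0.69. The arrays agreed in sign, and the mean of −0.58 ± 0.02 (SD, n = 2) was 1.50-fold lower in E47 cells, with a limma adjusted p of 0.0440. It was measured by 1 clone on 2 spots, and it did not pass with incomplete spots kept (adjusted p 0.0559, from 0.0190 to 0.148 over its alternatives). The other ligands had means from −0.20 to 0.20. TNFSF4, the OX40 ligand, was at −0.22, −0.27 and −0.09 and TNFSF14, the ligand LIGHT, at −0.14, −0.07 and −0.32. TNFSF13B, the B-cell factor BAFF, was at 0.26, −0.01 and 0.31, and TNFSF9, the 4-1BB ligand, at 0.10, 0.18 and 0.08. None of these 4 passed, with adjusted p-values from 0.196 to 0.380, and FASLG, the FAS ligand, had a mean of −0.11.

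Of 14 TNF receptors 1 fell (background 3.85%). TNFRSF21, or death receptor 6, a receptor with a cytoplasmic death domain, was at −0.58, −0.58 and −0.79. Its mean of −0.64 ± 0.07 (SD, n = 2) was 1.55-fold lower in E47 cells, with a limma adjusted p of 0.0412, and its clones were at −0.82 and −0.45. It did not pass with incomplete spots kept (adjusted p 0.0570, from 0.0180 to 0.110 over its alternatives). TNFRSF14, the receptor HVEM, was also below 0 throughout, at −0.48, −0.31 and −0.58, but had an adjusted p of 0.0635. TNFRSF12A, the TWEAK receptor Fn14, had the same mean as TNFRSF21 with a far wider spread: it was at −1.19, 0.29 and −0.47, with opposite signs on the arrays of extraction 2 and an adjusted p of 0.225.

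The FAS receptor and the TRAIL receptors TNFRSF10B and TNFRSF10D had means above 0 without passing. FAS was at 0.40, 0.24 and 0.33, above 0 on each array, with a mean of 0.34 ± 0.08 (SD, n = 2) and an adjusted p of 0.103. TNFRSF10B, the TRAIL death receptor DR5, was at 0.12, 0.20 and 0.08, and the decoy receptor TNFRSF10D at 0.11, 0.12 and 0.00. The dog table holds neither of these symbols, and clones of the TRAIL receptor family can bind each other's transcripts. TNFRSF9, the co-stimulatory receptor 4-1BB, was at −0.37, −0.33 and −0.05 (adjusted p 0.151). The other 7 receptors (TNFRSF18, TNFRSF11B, TNFRSF1B, RELT, TNFRSF8, TNFRSF25 and TNFRSF17) had means from −0.09 to 0.24.

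Of 11 adaptors and kinases below the receptors 2 fell and 0 rose (backgrounds 3.85% and 5.34%). RIPK2, the kinase that links the NOD receptors of bacterial peptidoglycan to NF-kB, had the lowest mean of all 78 genes. It was at −1.40, −0.97 and −1.38. The mean of −1.29 ± 0.16 (SD, n = 2) was 2.44-fold lower in E47 cells, with a limma adjusted p of 0.0204. Both of its clones were low, at −1.58 and −1.14.

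TRAF7, a ubiquitin ligase with WD40 repeats that binds the kinase MEKK3, was at −0.97, −1.01 and −0.90. The arrays of extraction 2 differed by only 0.11, and the mean of −0.96 ± 0.01 (SD, n = 2) was 1.95-fold lower in E47 cells (adjusted p 0.0233). TRAF7 was measured by 1 clone on 2 spots. TRAF3, which holds back the non-canonical NF-kB route by promoting turnover of the kinase NIK, was at −1.58, −0.18 and −0.86. Its mean of −1.05 ± 0.75 (SD, n = 2) was more negative than that of TRAF7, but the arrays ranged widely and the adjusted p was 0.111.

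The rest of this class, without RIPK2, TRAF7 and TRAF3, had means from −0.24 to 0.05. TRADD, the adaptor of TNF receptor 1, was at −0.32, −0.19 and −0.16 (adjusted p 0.166), and FADD, which recruits caspase-8, at −0.11, −0.04 and 0.03. CFLAR, the caspase-8 inhibitor FLIP, was at −0.13, −0.09 and −0.08. TRAF4 was at −0.17, −0.08 and −0.08 with clones of opposite sign, at −0.46 and 0.21, and TRAF5 at −0.13, −0.05 and −0.13. TRAF1 and TRAF6 had means of 0.03 and 0.05. CFLAR-AS1, transcribed antisense to CFLAR, was at −0.05 as a mean, and double-stranded cDNA spots cannot tell the strands of overlapping genes apart.

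None of the 10 NF-kB genes passed. Below 0 on all 3 arrays lay 7 of them (70.0%), against 42.3% of the 78 genes and 32.8% of named genes. The class is small and was not tested as a whole. IKBKB, 1 of these 7, had clones on both sides of 0, at −0.30 and 0.23. RELB, the subunit of the non-canonical route, was at −0.88, −0.08 and −0.56. RELA, the transactivating subunit p65, was at −0.66, −0.09 and −0.47. NFKBIA, the inhibitor IkB-alpha and itself an NF-kB target, was at −0.49, 0.03 and −0.45, and NFKB2, the precursor of p52, at −0.39, −0.08 and −0.39. All 4 were lower on the Cy5 arrays and within 0.1 of 0 on the Cy3 array, and their means ran from −0.60 to −0.31 with adjusted p-values of 0.112 to 0.133. NFKB1, the precursor of p50, was lowest on the Cy3 array, at −0.16, −0.33 and −0.14. The subunit REL, the kinase IKBKB, the IkB proteins NFKBIB and NFKBIE and the IkB-like NFKBIL1 had means from −0.12 to 0.04. With extraction 2 given by its Cy5 array alone (background 16.7%), RELA, RELB and NFKBIA passed, with adjusted p-values of 0.0478, 0.0482 and 0.0467. Over all alternatives these p-values ran to 0.388, 0.383 and 0.528. In that setting the E47 RNA was in Cy5 on every array, so dye and cells cannot be told apart there. The main means are only partly balanced for dye, because extraction 1 was on a Cy5 array alone. With a dye term the means of RELB, RELA, NFKBIA and NFKB2 were −0.40, −0.33, −0.22 and −0.24.

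**Figure D3:**
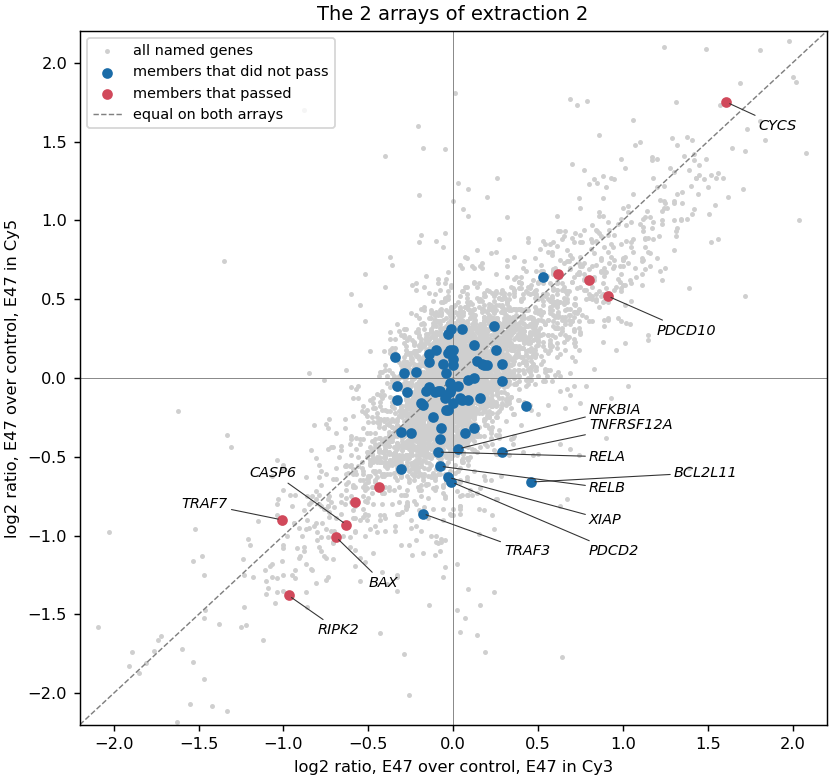
Log2 ratio of E47 over control on the Cy3 array (x axis) and the Cy5 array (y axis) of extraction 2, which share their RNA. The dashed line marks equal values. Grey dots are all named genes, of which 31 lie beyond the axes at 2.2. CYCS, TRAF7 and RIPK2 lie far from 0 on both arrays, and XIAP, RELA, RELB, NFKBIA and PDCD2 are near 0 in Cy3 and below −0.4 in Cy5.

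The 2 arrays of extraction 2 differed by at least 0.5 for 6 of the 78 genes (7.69%), against 7.68% of all named genes. These were BCL2L11, TNFRSF12A, TRAF3, PDCD2, CASP8AP2 and XIAP, all with the Cy3 value above the Cy5 value. For 44 of the 78 genes (56.4%) the Cy3 value was above both Cy5 values, and for 23 (29.5%) below both, against 48.1% and 30.8% of named genes. The part of the dye in these differences was not tested.

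Of 3 death-associated kinases 1 rose (background 5.34%). DAPK1, a calmodulin-regulated kinase that promotes cell death and membrane blebbing, was at 0.68, 0.62 and 0.66. Its mean of 0.66 ± 0.03 (SD, n = 2) was 1.58-fold higher in E47 cells, with a limma adjusted p of 0.0363. This close agreement hides a split between its 3 clones, which were at 0.86 over 6 spots, 1.25 over 2 spots and −0.52 over 2 spots. With each clone given equal weight the mean was 0.53 and the adjusted p 0.0532, so that the call depended on how the spots were weighted. With incomplete spots kept the adjusted p was 0.0641. Over its alternatives the adjusted p ran from 0.0155 to 0.0937. DAPK2 was at −0.28, 0.00 and −0.16, and DAPK3 at −0.22, 0.09 and −0.14. Neither passed, with adjusted p-values of 0.279 and 0.408.

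The 4 genes with a PDCD symbol share a name and not a function. PDCD10, also called CCM3, a partner of the germinal center kinases whose loss causes cerebral cavernous malformations, was at 0.55, 0.91 and 0.52. Its mean of 0.63 ± 0.12 (SD, n = 2) was 1.55-fold higher in E47 cells, with a limma adjusted p of 0.0462, the weakest of the 10 calls, and its clones were at 0.57 and 0.66. It did not pass with arrays centred on their median (adjusted p 0.0511), with clones of equal weight (0.0538) or with incomplete spots kept (0.0593), and its alternatives ran from 0.0212 to 0.115. PDCD2, a chaperone of a ribosomal protein, was at −0.97, −0.01 and −0.66 and did not pass (adjusted p 0.117). PDCD5 was at −0.41, 0.12 and −0.32, and PDCD4, an inhibitor of the translation helicase eIF4A, at 0.17, −0.03 and 0.28, both with mixed signs.

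**Figure D4:**
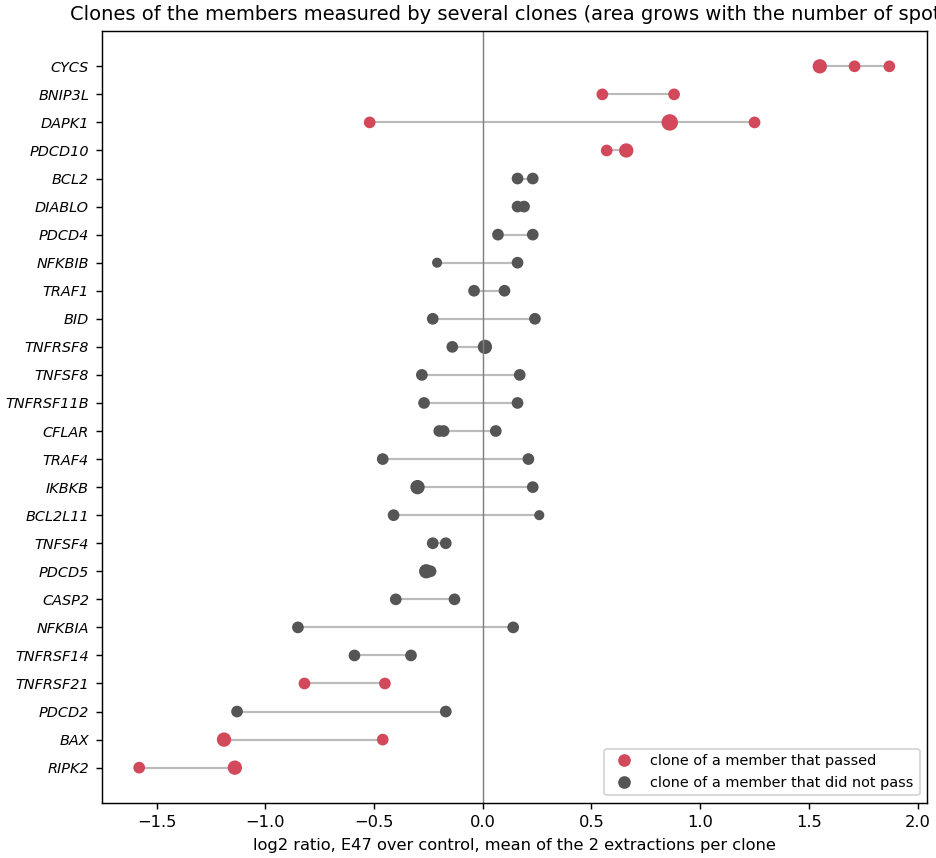
Mean log2 ratio of E47 over control (x axis) of each clone, for the 26 genes measured by several clones, ordered by the mean of the gene, with larger points for clones on more spots. Clones of CYCS, BNIP3L, PDCD10, TNFRSF21, BAX and RIPK2 lie on one side of 0, and those of DAPK1 on both sides.

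Several clones measured 26 of the 78 genes, and 12 of these had clones on both sides of 0. Among the 10 that passed, 7 rested on more than 1 clone, and only DAPK1 of these had clones of opposite sign. NFKBIA showed the widest split among genes that did not pass: 1 clone was at −1.16, −0.01 and −1.06 and the other at 0.17, 0.06 and 0.15. PDCD2 was similar in form, with 1 clone at −1.67, −0.03 and −1.16 and the other at −0.27, 0.01 and −0.16. In both genes it was the low clone that differed between the dyes, while the other lay between −0.27 and 0.17 on every array. Spots of the same clone lay close together, with a median range of 0.10, 0.04 and 0.06 on the 3 arrays over 102 clones, and largest ranges of 1.70, 0.69 and 2.29.

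Related genes were also looked up. They are outside these symbols, except for BCL2A1, which is counted again among the NF-kB targets. Of 27 measured apoptosis genes under other names, 2 rose and 3 fell, with a median of −0.07. CSE1L, an exporter of importin-alpha linked to the apoptosis response, was at 1.07, 1.15 and 0.80, and STK3, the Hippo pathway kinase MST2, at 0.83, 1.22 and 1.13. Both rose, CSE1L by 2.03-fold, with adjusted p-values of 0.0225 and 0.0341. FAIM, an inhibitor of FAS-induced death, was at −0.68, −0.78 and −0.68, STK17B, a kinase related to the death-associated kinases, at −0.61, −0.64 and −0.80, and MAP3K5, the stress kinase ASK1 that acts below TNF receptors, at −0.55, −0.53 and −0.61. These 3 fell, with adjusted p-values of 0.0335, 0.0391 and 0.0468.

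Of 18 other NF-kB pathway genes 1 fell and 0 rose, with a median of −0.04. It was BCL3, a nuclear IkB protein that binds p50 and p52, at −0.66, −0.63 and −0.67, with an adjusted p of 0.0367. It had nearly the same value in both dyes. Of 18 NF-kB target genes PLAU, the urokinase protease, fell, at −1.34, −0.76 and −1.13 with an adjusted p of 0.0322, and 0 rose, with a median of −0.03. None of 8 TNF family genes under other symbols passed, TNF itself being at −0.16, −0.17 and −0.40. These shares, 5 of 27, 1 of 18, 1 of 18 and 0 of 8, stand beside the background of 9.19%.

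All 6 measured epithelial markers fell, with means from −3.59 to −0.92. The lowest was CDH1, which had been used to read the direction of the ratios, so its sign is not a separate result. Since ratios give no level, they cannot show how far either population still expressed these markers. Of 8 measured leukocyte markers 1 rose, PTPRC, at 1.15, 1.13 and 0.69 on 1 spot, and the other 7 had means from −0.20 to 0.21. Many TNF family genes are best known from leukocytes, and the part of other cells in the ratios above was not tested.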

How the data were processed

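RNA of E47-transfected MDCK cells was compared with RNA of MDCK-CMV cells on 3 two-colour cDNA arrays. The deposited values are log2 ratios as read here, 1 column per array, and how the authors corrected background and normalized, and which log base and direction they used, was not given in the sources used here. A log10 scale is not possible for a 16-bit scanner, since the largest value, 7.80, is above 4.82, and a natural logarithm is possible. Symbols come from the platform annotation. Spots with a value on all 3 arrays (23275 of 27648) were averaged per gene, and spots without exactly 1 symbol were tested singly. The arrays of extraction 2, a technical dye swap, were averaged, which left 1 residual degree of freedom. Extraction 1 was on a Cy5 array alone, so the mean ratio is not fully balanced for dye. The mean ratio was tested against 0 by limma 3.58.1 (lmFit, eBayes; R 4.3.3) over 14008 features at a Benjamini-Hochberg adjusted p under 0.05. The eBayes prior, estimated from all features, had 2.71 degrees of freedom, so no p-value rests on the printed SD alone. Control RNA was in the other channel of every array. It is not settled here whether the extractions shared 1 control RNA, so the tested spread may or may not include that of the control. The test was also run on simulated data, drawn from its own fitted spread and without a dye effect. The limit set there on calls of the wrong sign was loosened after a first run went past it, so this is no check of the calls above. Signal over background is unknown.

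The genes and lists were chosen with earlier results of these data known. Genes named were all that passed, in each class the 4 with the largest mean that did not pass, and up to 8 that passed in each further list. Others are named to complete a class, after their values were seen. No dog promoter or protein sequences were used. Figures were drawn with matplotlib 3.10.9.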

Additional observations from a re-analysis of the deposited data

How the results depend on the processing

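The number of genes higher in E47 cells, 4, was 1 with extraction 2 given by its Cy3 array alone, 0 with scaled arrays, 2 with clones of equal weight (2.56% against 5.32% of named genes) and 2 with spots kept that lack a value on an array (2.50% of 80 against 3.84%). DAPK1 and PDCD10 lost their calls in both of the last settings. The number lower, 6, was 0 with the Cy3 array alone, 12 with the Cy5 array alone, 1 with scaled arrays and 3 of 80 with such spots kept (against 2.50% of named genes), where CASP6, TNFSF10 and TNFRSF21 lost their calls. Under the remaining alternatives (a dye term, median centring, robust eBayes, the median over spots, named genes alone, adjusted p under 0.10) the counts ran from 3 to 5 higher and 6 to 9 lower. In either direction 12.8% of the genes passed with a dye term, 15.4% among named genes alone and 17.9% at an adjusted p under 0.10, against 13.5%, 21.3% and 22.6% of named genes. The fit with a dye term treated the 3 arrays as independent, although the 2 arrays of extraction 2 share their RNA. The median of the genes ran from −0.13 to −0.06 in all alternatives, at −0.08 for extraction 2 alone and −0.13 for extraction 1 alone. Read as natural logarithms, 8 in place of 4 genes would be past 2-fold. Of 559 values of 43 named genes 2 changed sign, both of CASP8AP2. It was at 0.06 with a dye term and 0.13 on extraction 2 alone. Many of the 559 could not change sign. Robust eBayes, named genes alone and the looser threshold leave every mean as it was, and equal clone weight does so for genes of 1 clone. The count is therefore no measure of how stable the signs are. The causes of the differences between settings were not tested. Over all named genes, 109 passed with the Cy3 array alone, 919 with the Cy5 array alone, 68 with scaled arrays and 1175 when named genes were tested alone, against 506. Extraction as a random block could not be fitted on 3 arrays, and 1 extraction alone gives no test. No paired analysis was possible because the ratio of each array already pairs the channels and there is 1 group. Signal over background is unknown, so dim spots could not be left out.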

Other observations

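The 7 genes without a spot measured on all 3 arrays were TNFRSF1A, TNFRSF4, TNFRSF11A, TNFRSF13B, RIPK3, IKBKG and BIK. TNFRSF1A, the main receptor of TNF, had 4 spots and no value on the array of extraction 1. It was at 0.09 on the Cy3 array of extraction 2 and at −4.23, from 1 spot, on the Cy5 array, and on the Cy3 array that same spot gave 0.19. IKBKG, the regulatory subunit NEMO of the IkB kinase, had the same form, with 0.09 on the Cy3 array and −3.84 from 1 spot on the Cy5 array. RIPK3, the kinase of necroptosis, was at −0.45 for extraction 1 and −0.92 on the Cy5 array of extraction 2. BIK was at 0.15 in Cy3 and −0.48 in Cy5, TNFRSF11A, the receptor RANK, at 0.08 for extraction 1 and 0.32 in Cy5, and TNFRSF13B at 0.19 in Cy3 alone. TNFRSF4 had no value on any array.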
